A study of Mus musculus with 6 samples.

Results

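Of the 33682 gene rows in the deposited expression table, 101 carried the transcription factor family label bHLH, and 37 of these are described here. They were selected on their level, with a 6-library mean of 1 FPKM or more, where FPKM is a fragment count divided by gene length and by library size. A further 12 rows that reached this level were left out by name, among them Hes1, the Id genes and Myc, and 52 rows lay under it, 25 of them listed at 0 in every library. The members nearest the limit were Hey2 and Ahrr, at means of 1.07 and 1.12 FPKM, and the rows just under it were Hes7 and Mycn, at 0.896 and 0.592 FPKM.

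The cells came from newborn rat heart, had a wild-type genotype by the labels, and were kept in medium conditioned by bone marrow-derived mast cells. The record lists the organism as Mus musculus, while 32883 of the 33682 gene rows carry rat identifiers. In 3 libraries the mast cells were wild type (WT medium), and in 3 they were ALOX5-/- (Alox5KO medium), so that they lacked 5-lipoxygenase, the enzyme that begins leukotriene synthesis. TNF-a had been given to the mast cells of both groups, and no culture free of mast cell medium was analysed here. The labels name the cells cardiomyocytes, the design text names a fibroblast culture, and nothing says that replicates were separate cultures, so that the spread behind each p-value is that of these samples and could be technical.

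Basic helix-loop-helix (bHLH) proteins bind DNA as pairs, each partner laying a basic region on its side of a short palindrome called the E-box. Broadly expressed members, such as the E proteins, MAX, MLX and ARNT, serve as common partners, and members with restricted expression give the pair its specificity and decide whether it activates or represses. In mesenchymal cells the family takes part in fibroblast and tendon identity, in the circadian clock, in the sensing of foreign chemicals and in the control of lysosomes.

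The libraries held between 13284088 and 15766187 reads, recovered from the steps in the FPKM values. Fibroblast markers were abundant, with summed levels of 12872 to 13539 FPKM over 13 genes with WT medium and 12352 to 14009 with Alox5KO medium. Single markers differed under these sums: 3 of the 13 rose (Col3a1, Vim and Tcf21) and 4 fell, among them decorin (Dcn), from 2219 to 134 FPKM, and Fn1, Lum and Pdgfra. Over 14 cardiomyocyte markers the sum was 31.9 to 56.4 and 105 to 132 FPKM, with Myl2 listed at 0 throughout and Tnnt2 the most abundant. The 9 smooth muscle and pericyte markers summed to 1056 to 1171 and 4958 to 6786 FPKM, and 7 of the 8 tested rose while 1 fell. Of the 9 mast cell markers, Ms4a2, Fcer1a and Tpsb2 were listed at 0, whereas Cpa3 had 45.4 ± 7.69 and 19.6 ± 4.19 FPKM, Cma1 6.40 ± 1.32 and 6.35 ± 0.994, and Kit 0.618 ± 0.133 and 1.01 ± 0.280 (SD, n = 3 each), so that the mast cell markers did not move together. These marker differences ran alongside every difference reported below. Their part in it was not tested, and in bulk RNA fewer cells of a type and less RNA per cell cannot be told apart.

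Between the media, 12 of the 37 bHLH rows differed: 5 were higher and 7 lower in cells given Alox5KO medium. The rises were those of Scx, Hey2, Bhlhe41, Arnt2 and Atoh8, and the falls those of Twist2, Ahrr, Npas2, Mxi1, Tfec, Arntl and Mxd1. Among all 12341 genes tested, 20.7% were called, 10.0% higher and 10.6% lower (limma, Benjamini-Hochberg adjusted p under 0.05). Levels did not overlap between the groups for 18 of the 37 members, against 37.6% of all tested genes. Of the 4 members with a group mean under 1 FPKM (Hey2, Bhlhe41, Npas2 and Ahrr) each entered through the group where it was high, so its difference is in part built into the selection. Among the 33 others, 8 were called, which is 24.2%, beside 19.4% of the tested genes with both group means at 1 FPKM or more. The groups did not overlap for 14 of these 33, or 42.4%, beside 36.3% of those tested genes. Among the tested genes with another family label, 126 of 742 were called. Without WT-medium replicate 1 the members called numbered 3 higher and 4 lower, and without Alox5KO-medium replicate 2 they numbered 4 and 4.

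**Figure D1:**
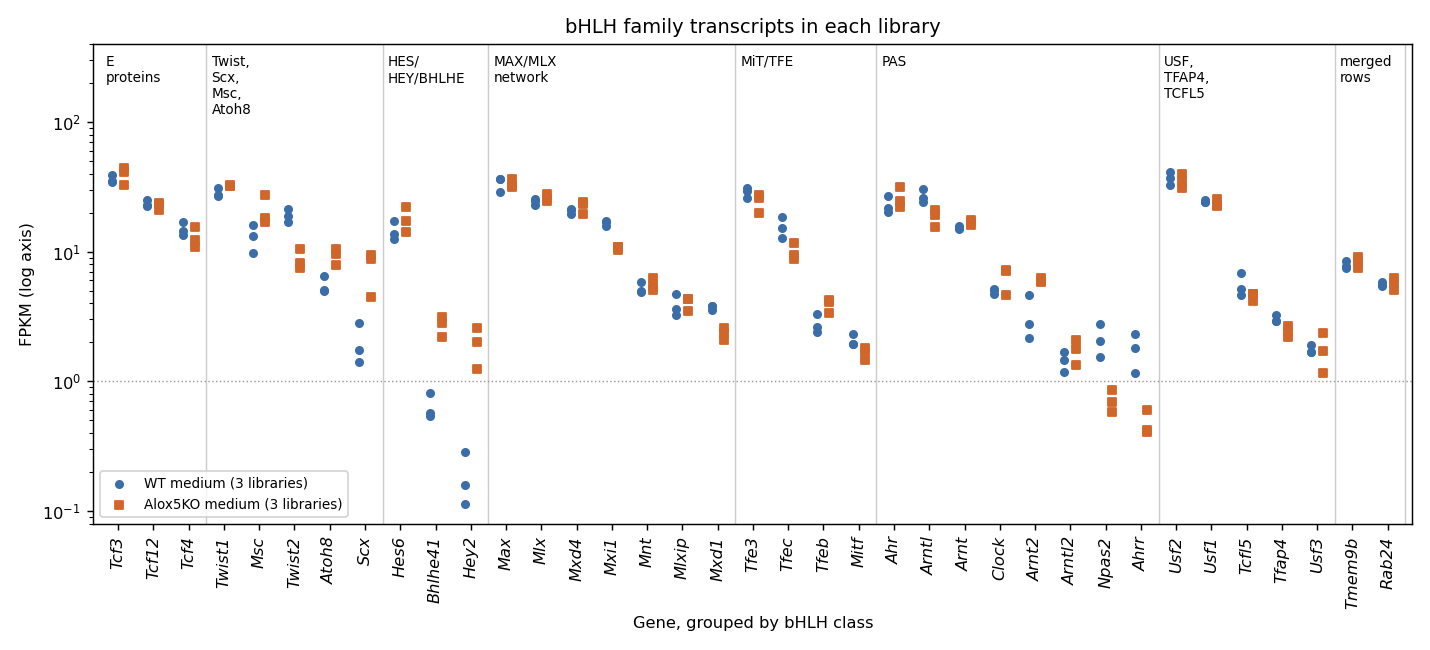
FPKM on a log axis for the 37 bHLH family rows, grouped by class, with 3 WT-medium libraries as circles and 3 Alox5KO-medium libraries as squares; the dotted line marks 1 FPKM. Tcf3, Usf2 and Max sit at the top with groups that overlap, while Hey2 and Bhlhe41 lie under the line with WT medium and above it with Alox5KO medium. Hey2 and Bhlhe41 entered through their Alox5KO-medium level, so that crossing is in part built into the selection.

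The median log2 fold change of the 37 rows was 0.06, and that of all tested genes was -0.00082, with 20 of the 37 values above 0. Fold changes are signed so that a positive value is higher with Alox5KO medium, on the scale of log2(FPKM + 1), which understates the change of genes of low level. The members' values ran from -1.05 for Twist2 to 1.49 for Scx. Summed over the 37 rows, the level was 479 ± 21.4 FPKM with WT medium and 479 ± 22.1 with Alox5KO medium (SD, n = 3 per group), so the total was the same to within the spread while single members moved apart.

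**Figure D2:**
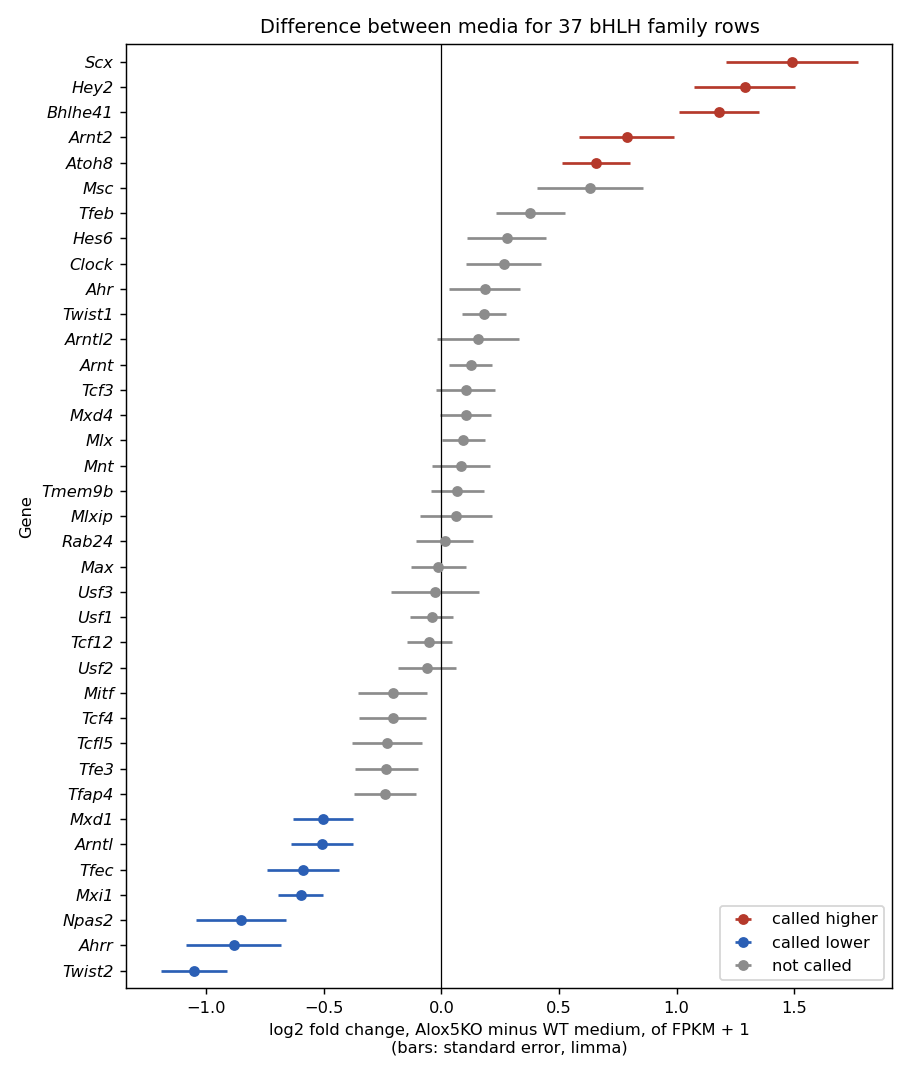
Log2 fold change with its standard error from limma for the 37 rows, with the 5 called higher in red, the 7 called lower in blue and the others in grey. The called rows lie at both ends of the range, and the values from Msc at 0.63 to Tfap4 at -0.24 did not pass the test.

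The E proteins, which pair with most tissue-restricted bHLH factors, showed no called difference. Tcf3 (E2A) had 39.1, 34.8 and 34.9 FPKM with WT medium and 32.4, 41.1 and 44.3 with Alox5KO medium, the highest mean level of all 37 rows. Tcf12 (HEB) had 23.6 ± 1.39 and 22.7 ± 1.51 FPKM, and Tcf4 (E2-2) had 14.9 ± 1.70 and 12.9 ± 2.40 (SD, n = 3 per group). The groups overlapped for each of these, the log2 fold changes were 0.10, -0.05 and -0.21 with standard errors of 0.13, 0.10 and 0.14, and 0 of 3 passed limma, either after adjustment, at an unadjusted p under 0.05, or with voom, limma's count model, on the recovered reads. Their summed level was 74.7 ± 3.93 FPKM with WT medium and 74.9 ± 7.18 with Alox5KO medium (SD, n = 3 per group). The Id proteins, which lack the basic region and hold E proteins away from DNA, are among the genes left out. Id1 to Id4 together had 2.73, 2.86 and 2.31 times the summed E protein level with WT medium and 5.16, 4.25 and 4.91 times with Alox5KO medium, and these ratios did not overlap. The Id sum was carried by Id3, at 133 and 298 FPKM, while Id1 had the opposite direction in value, 45.9 and 29.5 FPKM, and did not pass. These Id genes were named after their values were seen.

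Among the tissue-restricted partners of the E proteins, Scx and Atoh8 rose, Twist2 fell, and Twist1 and Msc did not pass. Scx, or scleraxis, a factor of tendon and of matrix-producing fibroblasts, had 2.82, 1.74 and 1.40 FPKM with WT medium and 4.48, 8.71 and 9.49 with Alox5KO medium. The groups did not overlap, and Alox5KO-medium replicate 1 was the lowest of its group. The log2 fold change was 1.49 ± 0.28 (SE, limma, adjusted p = 0.0081 by Benjamini-Hochberg), from 94 and 400 reads. Scx (ENSRNOG00000021812, chromosome 7, 117519075 to 117521093, in the table's coordinates, whose genome build no source used here gives) lies inside Bop1 on the opposite strand. Bop1, a ribosome biogenesis gene, had 21.7 and 23.7 FPKM with a log2 fold change of 0.11, and did not pass, and unless the counting used strand the reads of the overlap cannot be told apart.

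Twist2 (ENSRNOG00000020355, chromosome 9, 98924134 to 98968510), a repressor of mesenchymal differentiation also known as Dermo1, had 21.3, 18.7 and 16.8 FPKM with WT medium and 8.13, 10.4 and 7.42 with Alox5KO medium. Each WT-medium value was above each Alox5KO-medium value. The log2 fold change was -1.05 ± 0.14 (SE, limma, adjusted p = 8.3e-04 by Benjamini-Hochberg), and it ran from -1.18 to -0.96 with 1 library left out. Its paralog Twist1, a factor of cranial and limb mesenchyme and of epithelial-mesenchymal transition, had 31.0, 26.7 and 27.4 against 32.0, 32.1 and 32.6 FPKM. Those groups did not overlap either, but the log2 fold change of 0.18 did not pass (limma, adjusted p = 0.23 by Benjamini-Hochberg). Within a library Twist2 stood at 0.687, 0.699 and 0.614 of the Twist1 level with WT medium and at 0.255, 0.325 and 0.227 with Alox5KO medium.

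Atoh8 (ENSRNOG00000010716, chromosome 4, 100067341 to 100099517), an atonal-type factor that is expressed in several mesodermal tissues, had 5.00, 5.06 and 6.50 FPKM with WT medium and 7.83, 10.5 and 9.54 with Alox5KO medium. Its log2 fold change was 0.66 ± 0.14 (SE, limma, adjusted p = 0.011 by Benjamini-Hochberg), and the call was lost without WT-medium replicate 1 (adjusted p = 0.0502). Msc, or musculin, a repressor that can occupy the sites of myogenic bHLH factors, had 13.2, 9.81 and 16.1 against 18.2, 16.8 and 27.5 FPKM. All 3 Alox5KO-medium values were above all 3 WT-medium values, yet the log2 fold change of 0.63 ± 0.22 (SE) did not pass (limma, adjusted p = 0.094 by Benjamini-Hochberg). Taking the 5 genes of this class together, the sum was 67.9 ± 5.63 and 78.6 ± 8.01 FPKM (SD, n = 3 each). Its make-up shifted: Twist2 went from 27.9% ± 2.88 to 11.1% ± 2.38 of the sum, Scx from 2.90% ± 0.900 to 9.46% ± 2.70 and Atoh8 from 8.16% ± 1.35 to 11.8% ± 1.32, with groups that did not overlap for these 3, while Twist1 held 41.9% ± 1.48 and 41.3% ± 3.81 (SD, n = 3 per group).

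**Figure D3:**
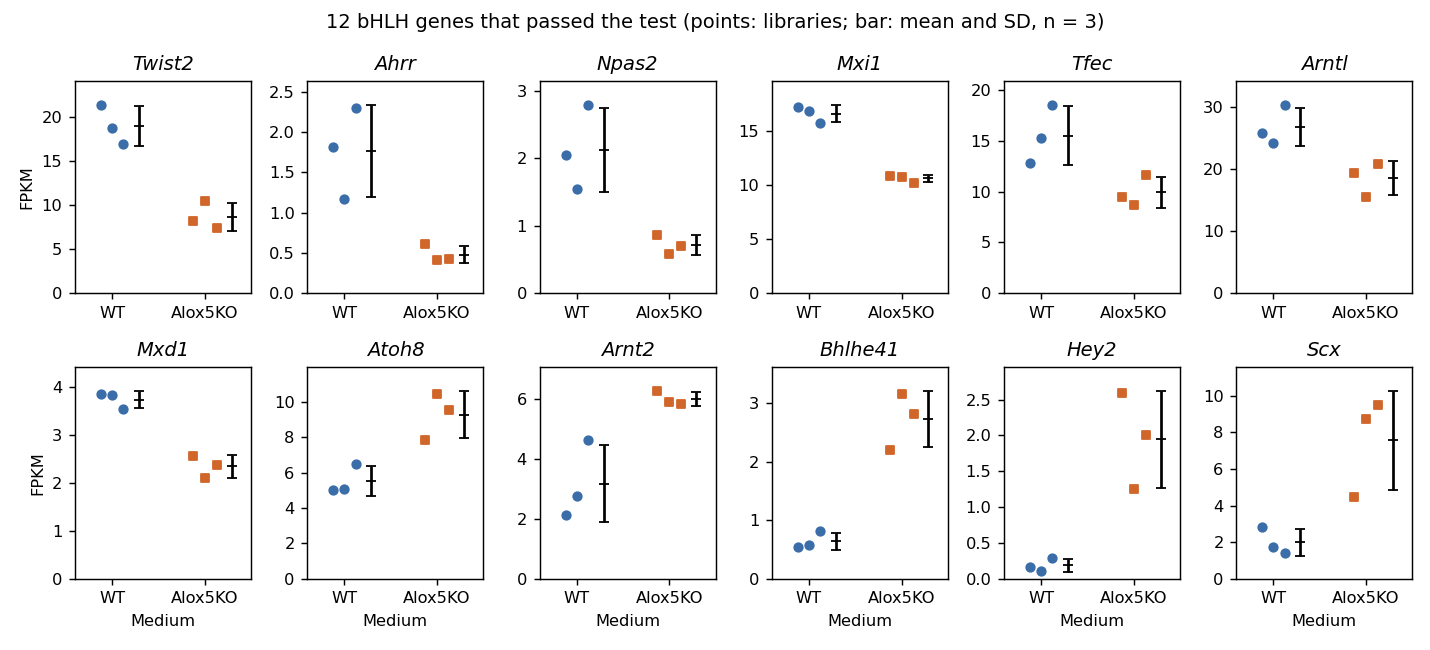
FPKM by library for the 12 bHLH genes that passed the test, with the mean and SD of 3 libraries beside the points and every axis starting at 0. The 7 genes that fell come first, from Twist2 to Mxd1, and in each of the 12 panels the WT-medium and Alox5KO-medium points do not overlap.

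The repressors of the HES, HEY and BHLHE groups bind DNA with a bHLH domain and recruit corepressors. Hey2 (ENSRNOG00000013364, chromosome 1, 29191192 to 29201531), a Notch-responsive repressor known from ventricular and vascular development, had 0.160, 0.114 and 0.285 FPKM with WT medium and 2.59, 1.25 and 2.00 with Alox5KO medium, from 21 and 240 reads. Its log2 fold change was 1.29 ± 0.21 (SE, limma, adjusted p = 0.0028 by Benjamini-Hochberg), or 2.83 where 0.1 was added in place of 1. The ratio of the group means was 10.5. Bhlhe41 (DEC2, ENSRNOG00000048961, chromosome 4, 180232382 to 180234804), which represses clock genes, had 0.536, 0.573 and 0.811 against 2.21, 3.15 and 2.82 FPKM, a log2 fold change of 1.18 ± 0.17 (SE, limma, adjusted p = 0.0013 by Benjamini-Hochberg), or 1.94 with a pseudocount of 0.1. Hey2 and Bhlhe41 were both under 1 FPKM in each WT-medium library and above it in each Alox5KO-medium library. Both reached the selection limit through their Alox5KO-medium level, so this crossing is in part built into the selection. Hes6, an atypical member that can antagonise other HES factors, was the most abundant of the group at 14.4 ± 2.39 and 17.8 ± 3.88 FPKM (SD, n = 3 each). It overlapped between the groups and did not pass, with a log2 fold change of 0.28 (limma, adjusted p = 0.30 by Benjamini-Hochberg).

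In the network of MAX and MLX, the 2 genes that fell both encode repressors of the MXD type, which compete with MYC for MAX. Mxi1 (ENSRNOG00000034078, chromosome 1, 274030978 to 274090071) had 17.2, 16.9 and 15.8 FPKM with WT medium and 10.9, 10.8 and 10.2 with Alox5KO medium, with little spread inside either group. The log2 fold change was -0.60 ± 0.09 (SE, limma, adjusted p = 0.0020 by Benjamini-Hochberg), and it stayed between -0.63 and -0.57 with 1 library left out. Mxd1 (ENSRNOG00000017720, chromosome 4, 118449882 to 118472179) had 3.84, 3.82 and 3.53 against 2.56, 2.10 and 2.36 FPKM, a log2 fold change of -0.50 ± 0.13 (SE, limma, adjusted p = 0.023 by Benjamini-Hochberg). Omitting WT-medium replicate 1 or 2 or Alox5KO-medium replicate 2 or 3 ended that call, the limma values after Benjamini-Hochberg being adjusted p = 0.095, 0.086, 0.062 and 0.055.

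The other 5 genes of this network did not pass. Mxd4, a related repressor, had 20.6 ± 0.872 and 22.3 ± 2.49 FPKM, and Mnt, a further MAX-binding repressor, 5.22 ± 0.491 and 5.59 ± 0.598 (SD, n = 3 per group). Max, the shared partner, had 33.9 ± 4.40 and 33.4 ± 2.53 FPKM, with a log2 fold change of -0.01 that changed sign under several alternatives. Mlx, the partner of the glucose-responsive Mondo factors, had 24.3 ± 1.11 and 26.0 ± 1.53, and Mlxip (MondoA) 3.85 ± 0.793 and 4.04 ± 0.494 FPKM (SD, n = 3 each). The Mlx row overlaps Psmc3ip on the opposite strand over 37 bases at one end. Among the 7 genes the share of Mxi1 went from 15.4% ± 0.343 to 10.2% ± 0.666 and that of Mxd1 from 3.45% ± 0.0831 to 2.24% ± 0.127 (SD, n = 3 per group), with no overlap, while the shares of the other 5 overlapped.

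The MiT/TFE factors control lysosome biogenesis and autophagy and are held in the cytoplasm by mTORC1 when nutrients are plentiful. Tfec (ENSRNOG00000061595, chromosome 4, 44065045 to 44136815) had 12.8, 15.3 and 18.5 FPKM with WT medium and 9.51, 8.71 and 11.6 with Alox5KO medium. It fell, with a log2 fold change of -0.59 ± 0.15 (SE, limma, adjusted p = 0.024 by Benjamini-Hochberg). The call was lost without WT-medium replicate 2 or 3 or Alox5KO-medium replicate 1 or 2, at adjusted p of 0.063 to 0.075, and at 0.062 with no filter on low values and 0.059 under TPM scaling (limma, Benjamini-Hochberg). Tfeb moved the other way in value, with 3.32, 2.64 and 2.41 against 3.38, 4.11 and 4.26 FPKM. These groups did not overlap, but the log2 fold change of 0.38 ± 0.15 (SE) did not pass (limma, adjusted p = 0.11 by Benjamini-Hochberg). Tfe3, the most abundant of the 4, had 28.7 ± 2.77 and 24.4 ± 4.03 FPKM, and Mitf had 2.07 ± 0.213 and 1.66 ± 0.189 (SD, n = 3 per group), and neither passed.

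The 4 together had 47.2, 46.0 and 54.1 FPKM with WT medium and 34.6, 42.1 and 43.2 with Alox5KO medium, again without overlap. Tfec stood at 3.86, 5.80 and 7.69 times the Tfeb level with WT medium and at 2.81, 2.12 and 2.74 times with Alox5KO medium, and the share of Tfeb in the sum went from 5.74% ± 1.29 to 9.80% ± 0.0535 (SD, n = 3 per group).

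The PAS domain factors sense foreign chemicals, oxygen or time of day. Of the 8, 4 were called, beside 20.7% of all tested genes, but Npas2 and Ahrr entered through the group where they were high, and of the other 6 members 2 were called. Ahr, the aryl hydrocarbon receptor, had 20.3, 21.7 and 26.7 FPKM with WT medium and 31.7, 22.2 and 24.8 with Alox5KO medium, groups that overlapped. Ahrr (ENSRNOG00000014721, chromosome 1, 31603297 to 31698329), its repressor and also a target of its signalling, had 1.82, 1.17 and 2.30 against 0.604, 0.407 and 0.422 FPKM. The log2 fold change of Ahrr was -0.88 ± 0.20 (SE, limma, adjusted p = 0.014 by Benjamini-Hochberg), or -1.65 with a pseudocount of 0.1, and its call was lost without WT-medium replicate 1 (adjusted p = 0.054). Ahr itself had a log2 fold change of 0.18 ± 0.15 (SE) and did not pass (limma, adjusted p = 0.45 by Benjamini-Hochberg).

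Of the general PAS partners, Arnt had 15.3 ± 0.499 and 16.8 ± 0.778 FPKM (SD, 3 libraries each) and did not pass, with a log2 fold change of 0.12. Arnt2 (ENSRNOG00000013017, chromosome 1, 146399217 to 146556171), its paralog best known from neurons, had 2.15, 2.76 and 4.63 FPKM with WT medium and 6.27, 5.89 and 5.83 with Alox5KO medium. WT-medium replicate 3 lay well above the other WT-medium libraries, although under all with Alox5KO medium. Arnt2 rose by 0.79 ± 0.20 (SE, limma, adjusted p = 0.023 by Benjamini-Hochberg). The call was lost without any of the libraries except WT-medium replicate 3, at adjusted p of 0.058 to 0.078, and at 0.062 without the filter on low values (limma, Benjamini-Hochberg).

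Among the PAS factors of the clock, both called genes fell, while the clock repressor Bhlhe41 described above rose. Npas2 and Bhlhe41 entered through the group where each was high, so their differences are in part built into the selection. Arntl (BMAL1, ENSRNOG00000014448, chromosome 1, 178039063 to 178137465), the activator at the core of the circadian oscillator, had 25.7, 24.2 and 30.2 against 19.3, 15.5 and 20.8 FPKM, a log2 fold change of -0.51 ± 0.13 (SE, limma, adjusted p = 0.025 by Benjamini-Hochberg). Without WT-medium replicate 1 or 3 or Alox5KO-medium replicate 1 or 2 its adjusted p was 0.051 to 0.067, 0.059 with no filter on low values and 0.056 under TPM scaling (limma, Benjamini-Hochberg). Npas2 (ENSRNOG00000013408, chromosome 9, 45901741 to 46081880), which can stand in for CLOCK as the partner of BMAL1, had 2.05, 1.55 and 2.79 against 0.864, 0.578 and 0.696 FPKM. It fell by 0.85 ± 0.19 on the log2 scale (SE, limma, adjusted p = 0.013 by Benjamini-Hochberg), and by 1.43 with a pseudocount of 0.1. Clock had 4.75, 5.20 and 5.05 against 7.08, 7.21 and 4.65 FPKM, where Alox5KO-medium replicate 3 lay under every WT-medium library. Its log2 fold change of 0.27 did not pass (limma, adjusted p = 0.30 by Benjamini-Hochberg), and was 0.44 and passed without that replicate (adjusted p = 0.045). Arntl2, a paralog of Arntl, had 1.44 ± 0.259 and 1.73 ± 0.378 FPKM (SD, 3 libraries each) and did not pass.

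The USF factors, TFAP4 and TCFL5 join the bHLH domain to a leucine zipper or bind E-boxes as pairs of their own kind, and 0 of the 5 genes passed limma, after adjustment, at an unadjusted p under 0.05 or with voom. Usf2 and Usf1, ubiquitous activators, had 37.1 ± 4.20 and 24.5 ± 0.557 FPKM with WT medium and 35.5 ± 4.40 and 23.8 ± 1.69 with Alox5KO medium (SD, n = 3 per group). Tcfl5 had 5.54 ± 1.19 and 4.52 ± 0.310 FPKM and Usf3 1.75 ± 0.125 and 1.74 ± 0.594 (SD, n = 3 per group). The Usf3 row overlaps Naa50 on the same strand and its reads are uncertain. Tfap4, a MYC-responsive regulator of proliferation, was the only gene of the 5 whose groups did not overlap, at 2.92, 3.22 and 2.93 against 2.38, 2.67 and 2.19 FPKM, with a log2 fold change of -0.24 (limma, adjusted p = 0.25 by Benjamini-Hochberg).

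Rows for Rab24 and Tmem9b carry the bHLH label although RAB24 is a small GTPase and TMEM9B a membrane protein. The Rab24 row's description names the MAX partner Mxd3 as its protein match, and in the mouse RefSeq annotation (GRCm38.p6) Mxd3 lies next to Rab24, and the bHLH gene Ascl3 next to Tmem9b. The Rab24 row also spans Prelid1, listed at 0. Rab24 had 5.59 ± 0.251 and 5.66 ± 0.625 FPKM and Tmem9b 7.93 ± 0.514 and 8.37 ± 0.815 (SD, n = 3 per group), with neither called, and these values cannot be assigned to a bHLH transcript.

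Related members were set against each other within each library for 16 pairs, which were chosen after their values were seen, so the ratios are given as a description with no test. The ratio did not overlap between the media for 10 pairs: Twist2 over Twist1, Scx over Twist1, Arnt2 over Arnt, Npas2 over Clock, Arntl2 over Arntl, Ahrr over Ahr, Tfeb over Tfe3, Tfec over Tfeb, and Mxd1 and Mxi1 each over Mxd4. On the scale of log2(FPKM + 1), the difference between media in these ratios ran from -1.23 for Twist2 over Twist1 to 1.31 for Scx over Twist1. Of all single tested genes, 37.6% did not overlap between the media, and other gene pairs were not examined. All of these pairs but Tfeb over Tfe3 hold a member that was called by itself. Npas2 and Ahrr entered through their WT-medium level, so the separation of their ratios is in part built into the selection. Npas2 stood at 0.430, 0.298 and 0.551 of the Clock level with WT medium and at 0.122, 0.0802 and 0.150 with Alox5KO medium. By contrast the ratio of Mxi1 to Mxd1 was 4.48, 4.42 and 4.47 with WT medium and 4.25, 5.15 and 4.33 with Alox5KO medium, and that of Usf2 to Usf1 was 1.65, 1.36 and 1.54 against 1.57, 1.35 and 1.56. The differences for these last ratios were -0.09 and -0.02, and the groups overlapped.

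**Figure D4:**
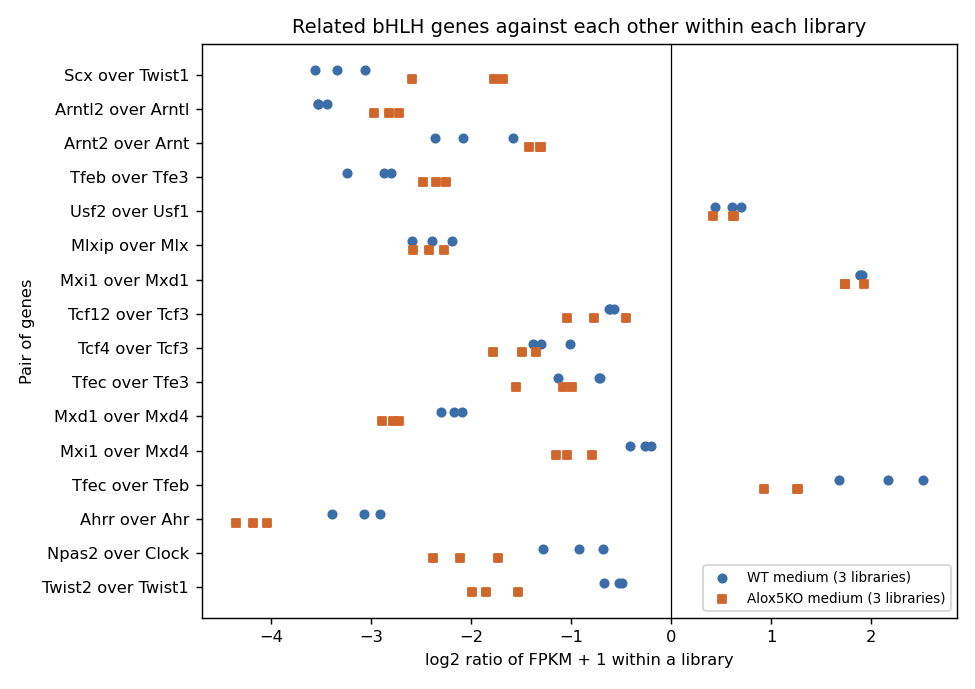
Log2 ratio of FPKM + 1 between 2 related genes within each library, for 16 pairs, with WT-medium libraries as circles and Alox5KO-medium libraries as squares. The groups are apart for 10 pairs, with Twist2 over Twist1 in the lowest row and Scx over Twist1 in the highest, and overlap for the others, such as Usf2 over Usf1.

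Partners, regulators and known targets of the bHLH factors were followed in 10 lists, whose counts stand beside the 20.7% of all tested genes that were called. Among AHR targets, 5 of 9 tested genes fell and 1 rose, together 66.7%, with a median log2 fold change of -0.59. Cyp1b1, a cytochrome P450 and a classical AHR target, rose from 60.0 ± 6.69 to 159 ± 25.8 FPKM, while the quinone reductase Nqo1 fell from 65.6 ± 9.99 to 37.0 ± 0.513 (SD, n = 3 per group), with log2 fold changes of 1.39 and -0.80 (limma, adjusted p = 1.6e-04 and 0.0016 by Benjamini-Hochberg). Serpinb2, a protease inhibitor, fell by 5.89 and the cytokine gene Il1b by 1.71, both also known as inflammatory genes, and Ahrr and Tiparp made up the 5. Ahrr is itself a bHLH member and passed the filter through its WT-medium level. The falls numbered 3 without WT-medium replicate 1, where Ahrr and Tiparp were lost. Nfe2l2, the most abundant AHR target that did not pass, had 119 ± 4.52 and 139 ± 6.76 FPKM (SD, n = 3 each). Among 10 chaperones and cofactors of AHR and ARNT, 1 fell and 0 rose, also at an unadjusted p under 0.05 (limma). That gene was the chaperone Hsp90ab1, at 1023 ± 52.7 and 745 ± 58.0 FPKM (SD, n = 3 each), and its call was lost with quantile normalization (adjusted p = 0.11) and without WT-medium replicate 1 or 2 or Alox5KO-medium replicate 1 (limma, adjusted p = 0.083, 0.072 and 0.052 by Benjamini-Hochberg). Ptges3, a co-chaperone and the most abundant that did not pass, had 202 ± 30.7 and 195 ± 7.19 FPKM (SD, n = 3 each).

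Among genes that tie the MiT/TFE factors to mTORC1, the called share was not far from the 20.7% of all tested genes. Of 13 tested, 4 rose and 0 fell (0 also at an unadjusted p under 0.05, limma): Flcn, or folliculin, its partner Fnip2, and the Rag GTPases Rragc and Rragd, together 30.8%, with a list median of 0.16. Flcn had 5.69, 6.01 and 7.79 FPKM with WT medium and 10.3, 9.72 and 13.6 with Alox5KO medium, and Rragd 0.395 ± 0.116 against 1.71 ± 0.574 (SD, n = 3 per group). Rragd passed the filter through its Alox5KO-medium level, so its rise is in part built into the filter. The log2 fold changes were 0.70, 0.76, 0.44 and 0.94 for Flcn, Fnip2, Rragc and Rragd, and leaving out WT-medium replicate 1 left 2 rises, since Flcn and Rragc had adjusted p of 0.054 and 0.071 (limma, Benjamini-Hochberg). Ywhaz, a 14-3-3 protein and the most abundant that did not pass, had 312 ± 27.5 and 340 ± 23.0 FPKM (SD, n = 3 each). Of 31 tested lysosome and autophagy genes of the MiT/TFE network, 2 rose and 0 fell (0 also at an unadjusted p under 0.05, limma), with a median of 0.10. Uvrag, an autophagy gene, rose by 0.60 and the lysosomal membrane gene Scarb2 by 0.48. The rises numbered 1 without WT-medium replicate 1 or 2 or Alox5KO-medium replicate 1 or 3, and 6 without Alox5KO-medium replicate 2. Psap, the precursor of the saposins and the most abundant that did not pass, had 293 ± 37.4 and 274 ± 45.6 FPKM (SD, n = 3 each).

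In the list of tendon and mesenchymal genes linked to Scx and Twist, 8 of 16 tested rose and 3 fell, together 68.8%, with a median of 0.45. The genes most closely tied to tendon were not among the rises: Tnmd and Kera were listed at 0 in all libraries, Mkx, Thbs4 and Comp lay under 1 FPKM, Comp with 0.772 ± 0.157 and 0.176 ± 0.0192 FPKM (SD, n = 3 each), and Fmod did not pass, with a log2 fold change of -0.75. These were named after their values were seen. Egr1, an immediate early factor that acts in tendon, had 5.65, 6.05 and 4.09 FPKM with WT medium and 24.8, 24.6 and 23.9 with Alox5KO medium, a rise of 2.04. The homeobox paralogs Prrx1 and Prrx2 were not alike: Prrx1, named after its values were seen, rose by 0.66, from a mean of 137 to 217 FPKM, and Prrx2 fell by 1.04, from 30.3 to 14.2 FPKM. The receptor Pdgfra, which marks fibroblasts, fell by 1.09, and the collagen Col14a1 rose by 1.04. Postn, the most abundant that did not pass, had a log2 fold change of -0.02. The rises numbered 5 without WT-medium replicate 1.

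Among clock-controlled genes, 3 of 14 tested rose and 1 fell, together 28.6% and not far from the 20.7% of all tested genes, with a median of 0.15. Nr1d1 (REV-ERB alpha), which represses Arntl, had 2.37, 2.71 and 2.25 against 4.19, 4.24 and 4.74 FPKM, a rise of 0.65, and Dbp and Cry2 rose by 0.65 and 0.55. Nampt, an enzyme of NAD synthesis, fell by 0.53. The rises numbered 1 without WT-medium replicate 1 or 2 or Alox5KO-medium replicate 3, and 2 without Alox5KO-medium replicate 1 or 2. Nfil3 had 20.0 ± 1.09 and 17.3 ± 1.03 FPKM (SD, 3 libraries each) and did not pass.

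The remaining lists divided or changed little. Of 7 tested targets of MondoA and ChREBP, Arrdc4, an arrestin-like regulator of glucose uptake, fell from 14.2 ± 1.02 to 4.27 ± 0.473 FPKM (SD, 3 libraries each) and the hexokinase Hk2 fell by 0.62, while Klf10 and Tbc1d1 rose by 0.52 and 0.47, and Tkt did not pass. The call for Tbc1d1 was lost without WT-medium replicate 1 or 2 or Alox5KO-medium replicate 2 or 3 (limma, adjusted p = 0.12, 0.071, 0.067 and 0.092 by Benjamini-Hochberg). Of 25 MYC targets, mostly in ribosome biogenesis and nucleotide synthesis, 1 rose and 2 fell, with a median of 0.08. Gnl3 rose by 0.36, and Odc1 and Ldha, which act in neither process, fell by 0.50 and 0.55. Those 2 falls became 0 without WT-medium replicate 1 or 2 or Alox5KO-medium replicate 1 or 3, and 5 without WT-medium replicate 3, and the call for Gnl3 was lost without WT-medium replicate 1 or 3 or any Alox5KO-medium replicate. Npm1, the most abundant that did not pass, had a log2 fold change of -0.31. Of 16 partners and corepressors of the E proteins and HES factors, 3 fell and 1 rose, with a median of 0.03. Lmo2, a LIM adaptor that bridges bHLH complexes, had 20.9, 16.8 and 17.3 against 3.06, 3.30 and 2.41 FPKM, and Rbpj, the DNA-binding partner of Notch, 99.1, 103 and 97.0 against 38.3, 41.6 and 30.2. The corepressor Tle4 fell by 0.89, and Tle3 rose by 0.49, a call that held without WT-medium replicate 3 and was lost without each of the other libraries (limma, Benjamini-Hochberg adjusted p of 0.0605 to 0.177). Tle5, the most abundant that did not pass, had 243 ± 9.49 and 259 ± 23.0 FPKM (SD, n = 3 each). Of the 14 tested genes left out by name, 6 rose and 4 fell, together 71.4%. Heyl rose from a mean of 0.736 FPKM with WT medium to 2.62 with Alox5KO medium. It passed the filter through its Alox5KO-medium level, so its rise is in part built into the filter. The calls for Heyl, Epas1 and Tcf21 were each lost with some single libraries left out. Another family label than bHLH is carried by 2 of the 14. Of the 12 with the bHLH label, 6 rose and 2 fell.

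**Figure D5:**
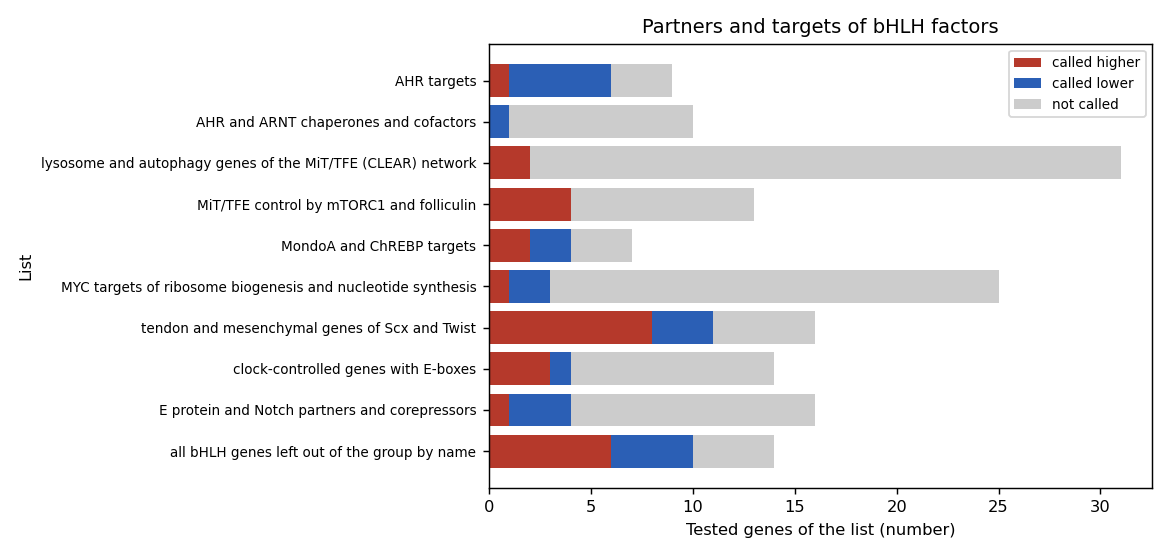
Number of tested genes called higher (red), called lower (blue) or not called (grey) in each of 10 lists of partners and targets of bHLH factors. The lysosome list, with 31 tested genes, has 2 called, and the mesenchymal list, with 16, has 11.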

How the data were processed

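The authors deposited FPKM values, with 1 column per sample and a family label per gene, per the file headers. HISAT2 2.0.5 and featureCounts 1.5.0-p3 are among the tools named per the submitters' processing notes, with the mouse build mm10, and 32883 of 33682 rows carry rat identifiers, and the rat build and strand setting are not given in the sources used here. Multiplied by gene length, 100% of the nonzero values came out as whole reads to within 0.05, and 3 reads on a gene of 1 kilobase corresponded to 0.185 to 0.228 FPKM, a limit for counting error only.

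The fit took genes averaging 1 FPKM or more as log2(FPKM + 1) with limma 3.58.1 in R 4.3.3 (mean-variance trend, robust prior, two-sided, no block), adjusted by Benjamini-Hochberg over all 12341. The members and lists were chosen with earlier results of these data known, and the pairs after their values were seen. Named genes are every member, up to 4 called genes with the smallest p per list and the most abundant that did not pass; of the bHLH genes left out by name and of most markers counts or sums are given. Genes named outside this rule, after their values were seen, are Tiparp, Prrx1, Id1, Id3, Heyl, Epas1 and Tcf21. So are the tendon genes that were low or did not pass, and the single markers. Alternatives were other pseudocounts, filters and scalings, another prior, voom, a replicate block and leaving out each library. Data were simulated for this contrast over 12341 genes, with a common dispersion of 0.011 and 200 genes changed. There limma found 43 of the 100 genes given a 1.5-fold change, 89 of the 100 given a 2-fold change, and 13 of the 12141 left alone.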

Additional observations from a re-analysis of the deposited data

How the results depend on the processing

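Over 15 alternatives, 496 of 542 member values kept their direction and their side of the threshold, 25 lost the call, 2 gained it and 19 changed sign; 21 of the 37 members kept both throughout, and 6 of the 12 called members were called with each library left out. The main counts were 5 members higher and 7 lower. With a minimum mean of 5 FPKM, which tests 24 of the members, they were 1 and 4. Leaving out 1 library gave 3 to 5 higher and 4 to 6 lower, and over all genes 791 to 1226 higher and 862 to 1325 lower, with 31 to 53 calls in the companion lists (49 with all libraries).

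The changes of sign were in members that did not pass in any of these settings. Max (-0.01) became 0.0029 with quantile normalization, 0.046 with TPM scaling and 0.014 with voom, and ran from -0.123 to 0.043 with single libraries left out. Rab24 became -0.0041 with quantile normalization and ran from -0.052 to 0.084. With TPM scaling Usf1 became 0.016, Tcf12 0.0071 and Usf3 0.0065. With single libraries left out Usf2 ran from -0.15 to 0.024, Usf3 from -0.185 to 0.131, Tcf12 from -0.083 to 0.0030 and Mlxip from -0.031 to 0.19. The cause of these changes was not tested.

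The replicate numbers are shared between the groups, but deviations from the group means correlated at -0.096, 0.105 and 0.167 for the same numbers over 12341 genes, so the numbers were not taken as pairs, and not every sample correlated best with its own number. With the replicate block 5 members were higher and 7 lower. Msc passed under the block (limma, Benjamini-Hochberg adjusted p = 0.0034), and Scx, with adjusted p = 0.051, did not. Genes simulated at 1.5-fold were recovered in under 50 of 100 cases, so a difference of that size in a member may go uncalled. The simulation gave all genes a common dispersion and changed a smaller share of genes than was called in the data. Its recovery rate therefore need not hold for the members.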

Other observations

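The bHLH rows under 1 FPKM were tested without the filter on low values. Of 52, 27 had reads, and 0 were called in either direction (limma, Benjamini-Hochberg), with 2 at an unadjusted p under 0.05. These were Ascl2, at 0.949, 0.435 and 0.572 FPKM with WT medium and 0.168, 0.0393 and 0.210 with Alox5KO medium, from 43 and 10 reads (adjusted p = 0.053), and Mycl, from 5 and 26 reads (adjusted p = 0.10). Bhlhe22 had 76 and 54 reads, Tal1, a factor of blood and endothelium, 132 and 121, and Mycn 65 and 71. The muscle determination genes Myod1 and Myf5 were listed at 0 in all libraries, and Myog had 4 and 0 reads. Hand1, a cardiac factor, had 12 and 6 reads.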
